A study of Saccharomyces cerevisiae with 8 samples.

Results

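Fuzzy nucleosomes are nucleosomes whose center lies at different places in different cells of a population, so that the sequenced fragments spread over many positions instead of stacking on one. The set described here held 2784 such nucleosomes of the 64594 called in one wildtype culture before the shift to dextrose (4.31%). A nucleosome was included when, in the wildtype replicate B call at 0 h, the standard deviation of its read centers was at least 36 bp and it held at least 40 read centers, and when wildtype replicate C at 0 h had a call within 50 bp that met the same limits. Both limits were met by 7135 calls in replicate B, and 39.0% of these had a partner in replicate C, at a median distance of 7 bp. The set was chosen by the wildtype 0 h spread and count, so every value in those 2 libraries, and every change measured from them, is a description and not a test.

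The data are MNase-seq of budding yeast: formaldehyde-fixed chromatin was digested with micrococcal nuclease, the mononucleosome band was cut from a gel, and both ends of each fragment were sequenced. H3 shutoff cells (strain DCB200.1) lack HHT1, 1 of the 2 histone H3 genes, and carry HHT2 under the GAL1 promoter. They were sampled 3 h after a shift out of galactose into dextrose, which turns that promoter off, and at 0 h in galactose (replicates 3 and 4). Wildtype cells (strain YEF473A), with both H3 genes intact, went through the same change of medium and were sampled at the same 2 times (replicates B and C). Each strain is a single strain, each replicate is 1 culture split between the times, and the 3 h samples of both strains differ from their 0 h samples in carbon source, so within a strain the change of sugar and the passing of time cannot be told apart. All 8 deposited libraries held 5000001 fragments of 100 to 200 bp, so occupancy is a share of a fixed total and an absolute loss of nucleosomes cannot be seen. In 200-bp bins of the sacCer1 genome with at least 30 read centers in each wildtype library, the H3 shutoff libraries held less than 10% of the wildtype read centers in only 2 bins. These were chr14:576000-576199, with 0 read centers in all 4 H3 shutoff libraries against 41 to 55 in the wildtype libraries, and chr2:256600-256799, with 4 to 7 against 53 to 85. HHT2 is on chromosome 14 and HHT1 on chromosome 2, so both bins follow the strain labels.

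A nucleosome is a length of DNA wrapped on an octamer of histones, of which H3 is one. In yeast genes the first nucleosome after the transcription start is held at nearly the same place in all cells, and the following ones line up behind it with a regularity that decays along the gene. Far from such a reference point the DNA is usually still covered, but less often at the same places in each cell. They are set here against 37317 other nucleosomes, the remaining replicate B calls with at least 40 read centers and a replicate C partner of at least 40.

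Occupancy was counted as the read centers within 50 bp of the replicate B center, in a 100-bp window. In fuzzy nucleosomes the median was 54 and 53 read centers at 3 h (replicates 3 and 4) and 53 and 54 at 0 h in H3 shutoff cells. In wildtype cells it was 50 and 53 at 3 h (replicates B and C) and 54 and 55 at 0 h. Fuzzy nucleosomes thus held about the same share of reads in all 8 libraries, and the 8 medians spanned 50 to 55. The other nucleosomes had medians of 54 and 53 at 3 h and 70 and 71 at 0 h in H3 shutoff cells, and 72 and 74 at 3 h and 76 and 76 at 0 h in wildtype cells. After H3 shutoff, the median occupancy of fuzzy and other nucleosomes was the same in this window, 54 in replicate 3 and 53 in replicate 4. Counted within 73 bp of the center, it was 79 and 78 for fuzzy and 74 and 73 for other nucleosomes at 3 h. At 0 h in H3 shutoff cells these medians were 75 and 76 against 82 and 83. Together the 100-bp windows of fuzzy nucleosomes took 3.30% and 3.54% of the read centers at 3 h and 3.20% and 3.24% at 0 h in H3 shutoff cells.

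Spread was measured as the standard deviation of the read centers within 73 bp of the same center. Centers scattered evenly over that 147-bp window give 42.4 bp, and 2 separate places of preference can give a similar value. The median spread of fuzzy nucleosomes was 39.9 and 38.7 bp at 3 h and 39.4 and 39.4 bp at 0 h in H3 shutoff cells, and 38.6 and 38.9 bp at 3 h and 37.7 and 38.8 bp at 0 h in wildtype cells. The other nucleosomes stood at 36.33 and 35.03 bp at 3 h and 29.6 and 29.6 bp at 0 h in H3 shutoff cells, and at 25.07 and 24.99 bp at 3 h and 24.5 and 25.1 bp at 0 h in wildtype cells. The value of even scatter was passed by 30.0% and 26.9% of fuzzy nucleosomes at 3 h and by 20.7% and 20.7% at 0 h in H3 shutoff cells.

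**Figure D1:**
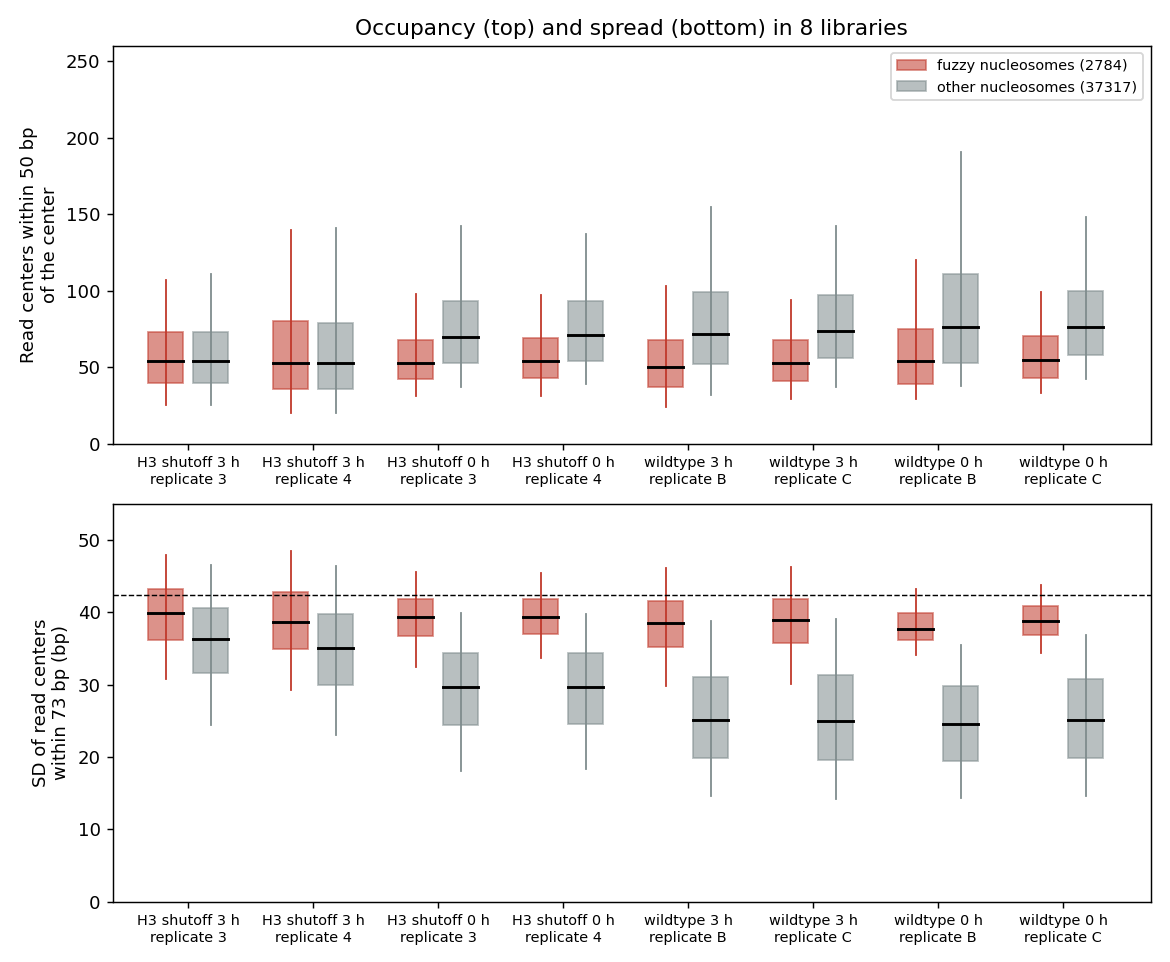
Occupancy (read centers within 50 bp, top) and spread (SD of read centers within 73 bp, in bp, bottom) of fuzzy (red) and other (grey) nucleosomes in each of the 8 libraries. Boxes run from the 25th to the 75th percentile of nucleosomes, lines across them are medians, whiskers run from the 5th to the 95th percentile, and the dashed line marks the 42.4 bp of even scatter. The red medians lie between 50 and 55 read centers throughout, while the grey ones are 53 and 54 only in the H3 shutoff 3 h libraries and 70 or more in the rest.

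The set could be looked for again in libraries that had no part in its choice. At 0 h in H3 shutoff cells, 63.1% and 65.9% of fuzzy nucleosomes had a deposited call within 50 bp that met both limits, against 23.4% and 20.8% of the other nucleosomes, and 46.6% met them in both replicates, against 12.2%. In wildtype cells at 3 h, 34.4% met the limits in both replicates, against 5.24% of the other nucleosomes. At 3 h in H3 shutoff cells the shares were 27.4% of fuzzy and 18.3% of other nucleosomes. By these shares the 2 sets were nearest each other after H3 shutoff. A nucleosome without a call within 50 bp counts here as not meeting the limits. At 0 h in H3 shutoff cells, 58.8% of fuzzy nucleosomes had a call in both replicates, against 88.8% of the others. The spread within 73 bp of the center needs no call. In the same libraries it was at least 36 bp in 80.9% and 83.4% of fuzzy nucleosomes, against 17.7% and 17.4% of the others. The 46.6% is thus not the share that was fuzzy in that strain in galactose. Many fuzzy nucleosomes had no call at all within 50 bp in the H3 shutoff 3 h libraries, where 54.7% and 56.3% had one, against 70.5% and 74.9% at 0 h. Of the other nucleosomes, 65.0% and 64.2% had a call at 3 h and 91.8% and 94.4% at 0 h.

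The values near the limit ran on without a step. Nearest inside it were nucleosomes at chr14:680995, chr3:98315 and chr9:121385, whose lower spread of the 2 wildtype 0 h calls was 36.002, 36.003 and 36.003 bp. Nearest outside were those at chr16:65447, chr13:752030 and chr3:315302, with 35.9984, 35.9982 and 35.9961 bp. The 780 nucleosomes with a lower spread of 36 to 37 bp had a median window spread of 39.3 and 38.2 bp at 3 h in H3 shutoff cells, and the 874 with 35 to 36 bp had 38.8 and 37.7 bp. At the far end, the highest mean spread of the 2 calls was at chr16:341637, with 53.8 bp in replicate B and 52.6 bp in replicate C. Its window spread stayed high in every library, at 49.5 and 49.6 bp at 3 h and 45.3 and 47.8 bp at 0 h in H3 shutoff cells and 43.5 and 40.7 bp at 3 h and 50.5 and 52.9 bp at 0 h in wildtype cells. The next 4 by that measure had mean call spreads of 48.6 to 49.6 bp, and none of these 5 nucleosomes was called changed in occupancy or spread in H3 shutoff cells, 3 h against 0 h, by the tests given further on. At 3 h, however, chr16:341637 was called lower in occupancy (−0.88 ± 0.29, edgeR adjusted p = 0.0274) and higher in spread (7.45 ± 2.45 bp, limma adjusted p = 0.0243) in H3 shutoff than in wildtype cells. One of the 5 lies 708 bp into GTO3, which encodes a glutathione transferase.

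The read center density in the windows of fuzzy nucleosomes often had more than 1 maximum. A maximum had to stand out by 20% of the highest density in the window, and a density still rising at the window's edge was counted as one. With the 2 wildtype 0 h libraries pooled and smoothed with a Gaussian of 10 bp, 1129 fuzzy nucleosomes (40.6%) had a single maximum of read center density within 73 bp, 1344 (48.3%) had 2 and 311 (11.2%) had 3 or more, while 93.4% of the other nucleosomes had 1. Where there were 2, the maxima lay a median of 67 bp apart (25th to 75th percentile, 58 to 73 bp), within a window that allows no more than 146 bp between them. A maximum at the center and a rise at the edge would lie 73 bp apart. How many of the maxima belong to a neighbouring nucleosome was not tested. In single libraries, 35.2% and 37.4% of fuzzy nucleosomes had 1 maximum at 3 h and 28.02% and 32.44% at 0 h in H3 shutoff cells. The share of other nucleosomes with 1 maximum was 49.8% and 50.9% at 3 h and 77.6% and 81.1% at 0 h. Nucleosomes with 1 maximum in the pooled libraries held more read centers within 50 bp than those with several. Their median occupancy was 59 and 60 at 3 h and 58 and 59 at 0 h in H3 shutoff cells, against 51 and 50 at 3 h and 51 and 52 at 0 h for those with 2 maxima. This is a description, as maxima 67 bp apart can lie partly outside the 100-bp window. In the single wildtype 0 h libraries fewer had 1 maximum (34.12% and 32.65%) than in the pool. Whether sparse reads add maxima was not tested.

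Averaged over all members, the read center density around fuzzy nucleosomes stayed above the genome mean within 73 bp of the center in all 8 libraries. At 65 bp from the center it was 1.32 and 1.38 times the mean at 3 h and 1.15 and 1.16 times at 0 h in H3 shutoff cells, and 1.07 and 1.10 times at 3 h and 1.11 and 1.12 times at 0 h in wildtype cells. The next nucleosome still showed as a maximum at 165 to 169 bp in every library, with 1.35 and 1.44 times the mean at 3 h and 1.45 and 1.44 times at 0 h in H3 shutoff cells. For the other nucleosomes that neighbouring maximum reached 1.20 and 1.22 times at 3 h and 2.04 and 2.01 times at 0 h. The neighbouring maximum stood above the lowest density before it by 0.253 and 0.32 at 3 h and by 0.428 and 0.401 at 0 h around fuzzy nucleosomes in H3 shutoff cells. Around the other nucleosomes the difference was 0.248 and 0.263 at 3 h and 1.51 and 1.49 at 0 h. The array around fuzzy nucleosomes was thus the weaker one at 0 h and lost less, and at 3 h the difference was of similar size in both sets.

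**Figure D2:**
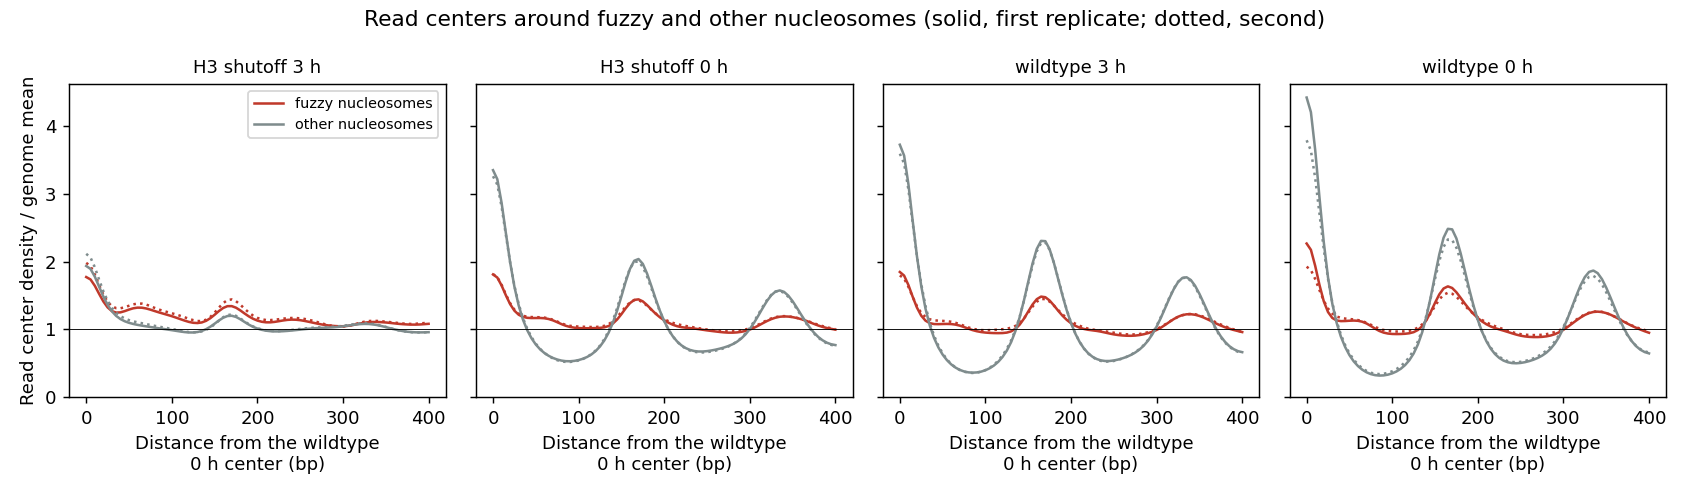
Density of read centers (over the genome mean) against distance from the wildtype replicate B 0 h center in bp, both sides folded together, for fuzzy (red) and other (grey) nucleosomes in the 4 groups; solid lines are the first replicate and dotted lines the second. At 3 h in H3 shutoff cells the red neighbouring maximum is 1.35 and 1.44 and the grey one 1.20 and 1.22.

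Fuzzy nucleosomes had more room around them than the others at 0 h and in wildtype cells at 3 h, but not in H3 shutoff cells at 3 h. In the deposited calls, the distance from the nucleosome before to the nucleosome after a fuzzy nucleosome had a median of 415 and 421 bp at 3 h and 397 and 386 bp at 0 h in H3 shutoff cells, against 417 and 430 bp at 3 h and 369 and 357 bp at 0 h for the other nucleosomes. In wildtype cells it was 380.5 and 385 bp at 3 h for fuzzy nucleosomes, against 351 and 353 bp for the others. Their neighbours were fuzzy as well: a call spread of at least 36 bp was found in 71.8% and 69.0% of the neighbours at 3 h and in 73.99% and 71.34% at 0 h in H3 shutoff cells, against 58.2% and 56.4% at 3 h and 32.2% and 28.8% at 0 h next to the other nucleosomes. Of the 2784 fuzzy nucleosomes, 1085 (39.0%) stood next to another one, in 455 runs, whereas 6.27% of the other nucleosomes stood next to a fuzzy one. The longest runs held 7 nucleosomes, at chr7:1035327-1036422 and chr8:430826-432095, and 6, at chr9:296421-297488. In the run on chromosome 7 the median occupancy was 42 and 36 at 3 h and 40 and 51 at 0 h in H3 shutoff cells, and 60 and 60 at 3 h and 39 and 51 at 0 h in wildtype cells. In the run on chromosome 8 it was 72 and 84 at 3 h and 79 and 85 at 0 h in H3 shutoff cells. Every chromosome had fuzzy nucleosomes, from 3.55% of the calls on chromosome 1 to 5.42% on chromosome 6, and 5.68% of them lay within 20 kb of a chromosome end, as did 4.97% of the others.

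Within genes, fuzzy nucleosomes lay far from the transcription start. Transcript starts and ends came from the study's list for 1614 transcripts on parts of chromosomes 1, 11, 12, 13 and 14, and 743 fuzzy nucleosomes lie on the stretches these transcripts cover. Of these, 690 (92.9%) were inside 1 transcript and 4 (0.54%) within 300 bp upstream of a start, against 84.6% and 4.52% of the other nucleosomes. The share of fuzzy nucleosomes among the matched calls was 0.74% in the first 150 bp of a transcript, 1.34% at 150 to 300 bp, 1.95% at 300 to 500 bp, 3.13% at 500 to 750 bp, 5.21% at 750 to 1000 bp, 12.2% at 1000 to 2000 bp and 21.7% beyond 2000 bp. The share was higher in each step away from the start, although any nucleosome beyond 2000 bp can only lie in a long transcript.

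**Figure D3:**
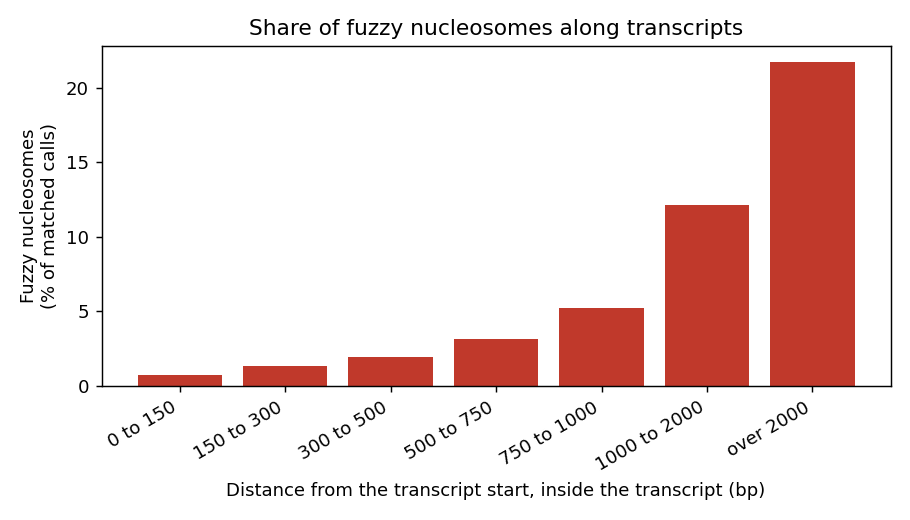
Fuzzy nucleosomes as a percentage of matched calls (at least 40 read centers in both wildtype 0 h replicates), by distance from the transcript start in bp, for nucleosomes inside 1 listed transcript. The bars run from 0.74% in the first 150 bp to 21.7% beyond 2000 bp.

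Fuzzy nucleosomes were found in 359 of the 1614 transcripts, and 78 transcripts held 3 or more. The other 281 held 1 or 2. The 4 genes with the most fuzzy nucleosomes are long ones and held 57 of the 706: REA1, a giant ATPase of ribosome assembly, had 19 among 33 matched calls, TOR2, a growth-controlling kinase, had 14 among 30, DYN1, the dynein heavy chain, had 13 among 36, and CSF1 had 11 among 31. Shorter genes with many were NFT1, with 9 among 12, FAS1, a fatty acid synthase subunit, with 8 among 19, HFA1, the mitochondrial acetyl-CoA carboxylase, with 8 among 27, and FLO10, a cell wall flocculin, with 7 among 16. FLO genes share repeated stretches with one another. The paper names Bowtie's default settings for the alignment and does not describe further how reads from such stretches were assigned. Of the gene groups looked at, the genes of glycolysis held 6 fuzzy nucleosomes among 23 matched calls (in CDC19, FBA1, PDC1 and PFK2), cytoplasmic ribosomal protein genes 3 among 71 (RPL15B, RPP0 and RPS25B), heat shock chaperone genes 2 among 31 (HSC82 and HSP104) and galactose genes 2 among 13 (GAL2 and GAL80), beside 706 among 8991 in all listed transcripts (7.85%).

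With equal library sizes and no further scaling, the typical fuzzy nucleosome showed little change of occupancy in H3 shutoff cells over 3 h in dextrose. Its spread changed little as well. The median change of occupancy, 3 h against 0 h, was 0 and 0 on the log2(read centers + 1) scale in H3 shutoff replicates 3 and 4 and −0.13 and −0.07 in wildtype replicates B and C. For the other nucleosomes it was −0.38 and −0.41 in H3 shutoff cells and −0.12 and −0.05 in wildtype cells. The median change of spread of fuzzy nucleosomes was 0.26 and −0.80 bp in H3 shutoff cells and 0.36 and 0.02 bp in wildtype cells, where that of the other nucleosomes was 6.45 and 5.29 bp in H3 shutoff cells and 0.90 and 0.13 bp in wildtype cells. Between the strains, the mean change of fuzzy nucleosomes differed by 0.10 in log2 occupancy and by −0.46 bp in spread, given without a test because both wildtype changes start from the libraries that chose the set. The fuzzy-minus-other gap in spread change was −6.19 and −6.09 bp in the H3 shutoff cultures and −0.53 and −0.11 bp in the wildtype cultures, and that in log2 occupancy change 0.38 and 0.41 against −0.00 and −0.01. In H3 shutoff cells at 0 h, fuzzy nucleosomes started at 39.4 and 39.4 bp and the others at 29.6 and 29.6 bp. The sets thus had unequal room to rise toward the 42.4 bp of even scatter, which enters the gap in spread.

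At equal library sizes, the lack of a typical change fell at the end of a gradient. When all matched calls were put in order of their mean wildtype 0 h call spread, the median log2 occupancy change in H3 shutoff replicates 3 and 4 was −0.72 and −0.67 for the 2999 nucleosomes under 16 bp, −0.51 and −0.53 at 20 to 24 bp, −0.21 and −0.24 at 28 to 32 bp, 0 and −0.04 at 36 to 40 bp and 0 and 0 at 40 bp or more. The median change of spread was 11.4 and 10.0 bp under 16 bp, 8.65 and 7.599 bp at 20 to 24 bp, 3.78 and 2.72 bp at 28 to 32 bp, 0.71 and −0.49 bp at 36 to 40 bp and −0.07 and −0.80 bp at 40 bp or more. In wildtype cells, by contrast, the median changes of all 8 classes lay between −0.15 and −0.02 in log2 occupancy and between −0.38 and 1.23 bp in spread. The classes are ordered by starting spread and had unequal room to rise. At 0 h in H3 shutoff cells the median window spread was 19.2 and 19.1 bp in the lowest class and 40.6 and 40.8 bp in the highest. The gradient in spread change is thus in part fixed by the starting values. A wider spread also moves read centers out of the 100-bp window in which occupancy was counted. In the 147-bp window, the H3 shutoff medians at 28 to 32 bp were 75 and 74 read centers at 3 h and 76 and 77 at 0 h. Under 16 bp they were 76 and 75 at 3 h and 107 and 102 at 0 h. Among nucleosomes at least 1000 bp into a transcript, the 563 fuzzy ones changed by a median of −0.02 and −0.05 in log2 occupancy in H3 shutoff cells and the 2982 others by −0.16 and −0.22. In wildtype cells these medians were −0.06 and −0.03 for the fuzzy ones and −0.12 and −0.07 for the others. Spread there changed by 0.23 and −1.07 bp in the fuzzy ones and 3.52 and 2.14 bp in the others in H3 shutoff cells. In wildtype cells it changed by 0.72 and 0.16 bp and by 1.65 and 0.74 bp.

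**Figure D4:**
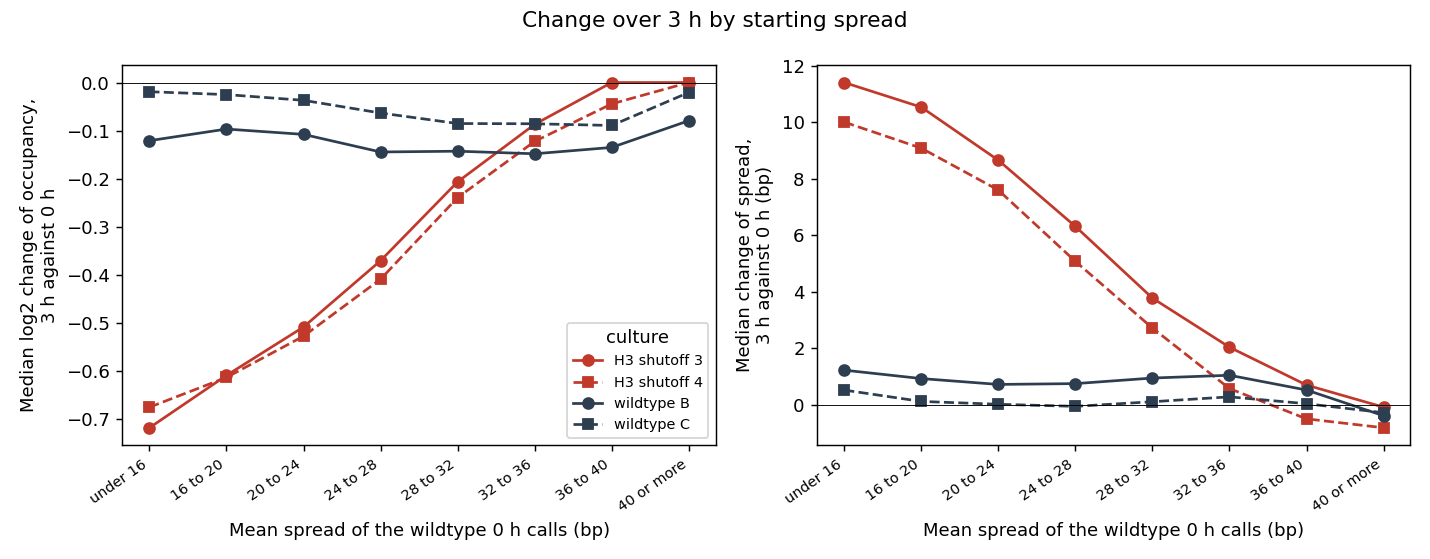
Median change, 3 h against 0 h, of log2(read centers + 1) (left) and of spread in bp (right), by the mean spread of the wildtype 0 h calls in bp, in each of the 4 cultures (H3 shutoff red, wildtype dark). The red lines run from −0.72 and −0.67 under 16 bp to 0 at 40 bp or more on the left, and from 11.4 and 10.0 bp to −0.07 and −0.80 bp on the right.

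A median near 0 does not mean that each fuzzy nucleosome stayed as it was. In edgeR's quasi-likelihood test over 62894 windows of at least 80 read centers in all, all 2784 fuzzy nucleosomes could be tested, and at 3 h against 0 h in H3 shutoff cells 233 (8.37%) rose and 176 (6.32%) fell in occupancy at an adjusted p under 0.05 (edgeR, Benjamini-Hochberg). Of all windows tested 3.63% rose and 20.8% fell, and the median log2 change was 0.00 for fuzzy nucleosomes and −0.37 for all windows. With read centers counted within 73 bp, these medians were 0.06 and −0.15. The fuzzy nucleosomes that rose had a median of 93 and 115 read centers at 3 h and 58 and 60 at 0 h in H3 shutoff cells. Those that fell had 34 and 30 at 3 h and 62 and 59 at 0 h. In wildtype cells, the nucleosomes that rose had a median of 51 and 51 read centers at 3 h and 70 and 61 at 0 h, and those that fell had 58 and 63 at 3 h and 53 and 61 at 0 h. Both the split and the median depend on the scaling. With edgeR's TMM factors the median log2 change is 0.36 for fuzzy nucleosomes and −0.01 for all windows. TMM gives 547 rises and 20 falls (8.34% and 5.97% of all windows). DESeq2 gives 38 and 0 (0.785% and 0.175% of all windows), with medians of 0.38 and 0.01. A median near 0 in fuzzy nucleosomes is thus a result of the unscaled counts. At an unadjusted p under 0.05, DESeq2 had 8 fuzzy nucleosomes and 2830 of all 62894 windows lower. The counts also fell with either H3 shutoff culture left out, to 62 rises and 19 falls without replicate 3 (1.29% and 5.74% of all windows) and to 4 and 4 without replicate 4 (0.0809% and 1.97%). Without wildtype replicate C 354 rose (6.04% of all windows). Fragments were longer at 3 h in H3 shutoff cells, with a mean of 158 and 163 bp, against 157 and 153 bp at 0 h. They were longer in wildtype cells too, with 155 and 156 bp at 3 h, against 151 and 146 bp at 0 h. With fragments of 140 to 160 bp alone 78 fuzzy nucleosomes rose and 71 fell (2.11% and 11.6% of all windows).

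The 5 largest rises of occupancy were at chr4:976853, chr15:37641, chr4:197011, chr15:613312 and chr2:699006. The nucleosome at chr4:976853 had 52 and 43 read centers at 3 h and 17 and 14 at 0 h in H3 shutoff cells, and 27 and 36 at 3 h and 23 and 24 at 0 h in wildtype cells. Its log2 change in H3 shutoff cells was 1.61 ± 0.40 (standard error, edgeR adjusted p = 0.0113). The nucleosome at chr4:197011 had 119 and 124 at 3 h and 46 and 45 at 0 h in H3 shutoff cells and 36 to 47 in the 4 wildtype libraries, so the H3 shutoff 3 h counts alone stood apart, with a log2 change of 1.41 ± 0.21 (edgeR adjusted p = 0.0014). Its spread fell too, with 25.7 and 24.7 bp at 3 h and 37.1 and 34.6 bp at 0 h in H3 shutoff cells (limma adjusted p = 0.022). In wildtype cells as well it was lower at 3 h, with 28.6 and 29.4 bp, against 42.3 and 36.3 bp at 0 h, and at 3 h the strains were not called different in spread (limma adjusted p = 0.256). At chr15:37641 the counts were 149 and 279 at 3 h and 67 and 86 at 0 h, the 2 cultures moving the same way by unequal amounts. The nucleosome at chr15:613312 is the first of a run of 5, whose median occupancy was 92 and 106 at 3 h and 51 and 61 at 0 h in H3 shutoff cells and 43 and 55 at 3 h in wildtype cells.

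The 5 largest falls were at chr15:15763, chr9:40835, chr2:42482, chr10:691475 and chr7:960023. At chr15:15763 there were 15 and 11 read centers at 3 h and 66 and 48 at 0 h in H3 shutoff cells, and 50 to 70 in the 4 wildtype libraries. The log2 change was −2.12 ± 0.30 (edgeR adjusted p = 0.00114). At chr9:40835 there were 9 and 10 at 3 h and 43 and 36 at 0 h in H3 shutoff cells, and 34 to 45 in wildtype cells. At chr7:960023 there were 21 and 19 at 3 h and 66 and 56 at 0 h in H3 shutoff cells, but in wildtype cells too the 18 and 39 at 3 h were below the 47 and 60 at 0 h. Except at chr9:40835 (adjusted p = 0.0717), these falls came with a called rise of spread.

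Spread was tested with limma over 59647 windows of at least 10 read centers in every library. In H3 shutoff cells at 3 h against 0 h, 104 fuzzy nucleosomes (3.74%) rose and 101 (3.63%) fell at an adjusted p under 0.05, where 28.7% of all windows rose and 1.65% fell. Fuzzy nucleosomes started nearer the value of even scatter, so these shares are not of windows with equal room to rise. The fuzzy nucleosomes that rose had a median of 47.6 and 48.6 bp at 3 h and 38.7 and 37.0 bp at 0 h, and so passed the value of even scatter, with read centers more toward the edges of the window than its middle. Those that fell had 30.8 and 29.5 bp at 3 h and 40.6 and 40.4 bp at 0 h. A lower spread in this fixed window is not by itself a sharper placement, as it can also follow where read centers shift toward the window's edge. In wildtype cells the medians at 3 h of the same nucleosomes were 38.3 and 37.1 bp for the first and 38.7 and 39.3 bp for the second. With either H3 shutoff culture left out, limma had no calls among fuzzy nucleosomes or all windows, so calls cannot be compared. The median change of spread of fuzzy nucleosomes was then −0.80 bp without replicate 3 and 0.26 bp without replicate 4. That of all windows was 4.09 and 5.12 bp.

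The largest rise of spread was at chr10:691475, with 47.0 and 54.3 bp at 3 h and 32.9 and 29.0 bp at 0 h in H3 shutoff cells and 28.6 to 35.3 bp in wildtype cells (19.7 ± 3.16 bp, limma adjusted p = 0.00505). It was followed by chr15:15763, chr2:42482 and chr7:960023, which also fell in occupancy, and by chr2:128069, where occupancy was not called changed (44 and 40 read centers at 3 h and 63 and 61 at 0 h, edgeR adjusted p = 0.107). The largest fall of spread was at chr16:811585, with 37.2 and 23.5 bp at 3 h and 48.9 and 49.3 bp at 0 h in H3 shutoff cells, on only 14 to 23 read centers in the 100-bp window. The next, at chr5:571809, had more reads behind it: its spread was 25.6 and 23.0 bp at 3 h and 40.6 and 41.5 bp at 0 h in H3 shutoff cells, against 37.7 to 42.2 bp in wildtype cells (−16.8 ± 2.81 bp, limma adjusted p = 0.0055), and its occupancy was 90 and 96 at 3 h and 44 and 50 at 0 h. The other 3 were at chr15:293512, chr2:126831 and chr8:243883, with changes of −15.1, −14.7 and −13.5 bp. In H3 shutoff cells at 3 h the read centers lay toward the window's edge at chr16:811585 (mean offset 42.2 and 52.9 bp) and chr2:126831 (−46.2 and −52.35 bp). At chr5:571809, chr15:293512 and chr8:243883 the offset was between −14.1 and 8.47 bp.

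Mean position was called changed by limma for 344 fuzzy nucleosomes in H3 shutoff cells at 3 h against 0 h, 194 (6.97%) toward higher and 150 (5.39%) toward lower coordinates, where 11.3% and 9.74% of all windows were called. The largest was at chr12:931890, within 300 bp upstream of the start of RPL31B, a protein of the large ribosomal subunit: the mean offset of its read centers was 29.9 and 31.2 bp at 3 h and −3.94 and −12.1 bp at 0 h in H3 shutoff cells (38.6 ± 4.32 bp, limma adjusted p = 0.0158). In wildtype cells it was 27.6 and 8.58 bp at 3 h and −0.91 and −11.3 bp at 0 h, so the 3 h offset was the higher one in both wildtype cultures too. At chr11:529768, 2430 bp into TRK2, a potassium transporter gene, the offset was 36.2 and 42.2 bp at 3 h and 1.73 and −0.32 bp at 0 h in H3 shutoff cells, while the wildtype offsets lay between −12.9 and 1.79 bp (38.5 ± 3.86 bp, limma adjusted p = 0.0158). The other 3 were at chr16:811585, chr8:74658 and chr10:704079, with changes of 36.8, −36.3 and 33.5 bp. Position, too, had no limma calls in either set with an H3 shutoff culture left out. Its median change was then 0.41 bp without replicate 3 and 0.55 bp without replicate 4 for fuzzy nucleosomes, and 0.36 and 0.37 bp for all windows. Over the 3 measures together, 797 fuzzy nucleosomes (28.6%) had at least 1 call and 1987 had none, and 82 (2.95%) were called in both occupancy and spread. Of all windows tested for every measure, 52.4% had at least 1 call and 14.6% were called in both.

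**Figure D5:**
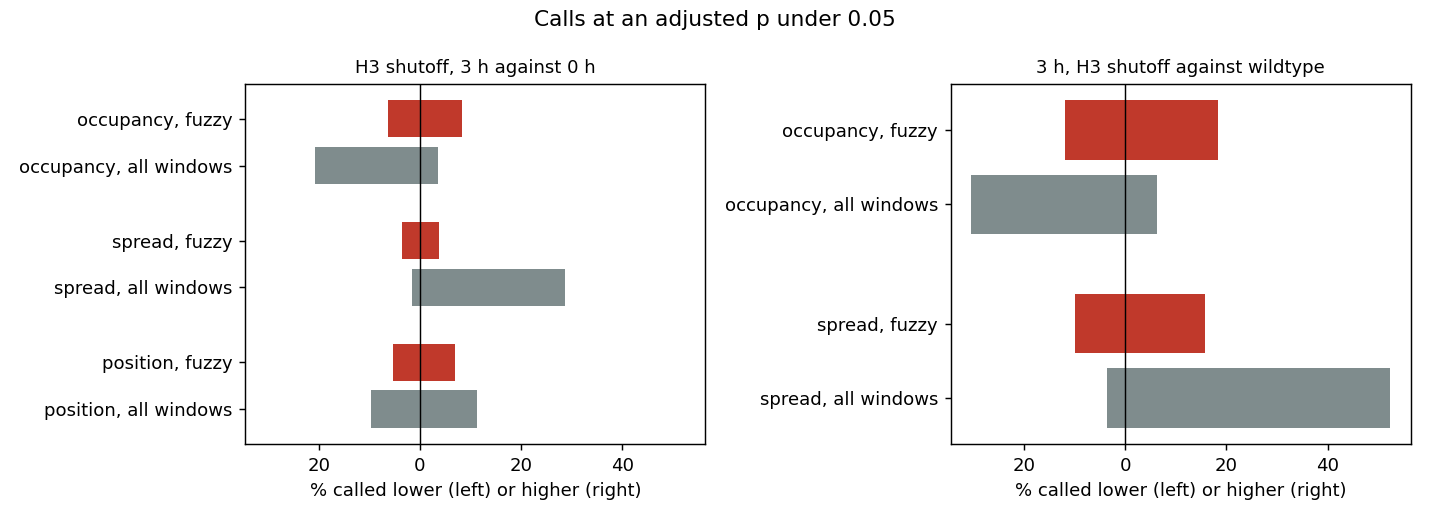
Percentage of fuzzy nucleosomes (red) and of all windows tested (grey) called higher (right of 0) or lower (left of 0) at an adjusted p under 0.05, for H3 shutoff 3 h against 0 h (left) and H3 shutoff against wildtype at 3 h (right). In occupancy over time the red bar reaches 8.37% higher and 6.32% lower and the grey bar 3.63% and 20.8%.

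The 3 h libraries of the strains, both in dextrose, were then compared with each other. The strains also differ in HHT1, and the paper reports that H3 shutoff cells arrest in dextrose and still hold some H3 protein. They differed before the shift too: the median spread of other nucleosomes at 0 h was 29.6 and 29.6 bp in H3 shutoff and 24.5 and 25.1 bp in wildtype cells. The contrast is thus one between strains, in which loss of H3 expression cannot be told apart from these differences. In occupancy, 513 fuzzy nucleosomes (18.4%) were higher and 330 (11.9%) lower in H3 shutoff than in wildtype cells (edgeR adjusted p under 0.05), where 6.39% of all windows were higher and 30.4% lower. The 513 had a median of 80 and 94 read centers in H3 shutoff cells and 40 and 43 in wildtype cells, and the 330 had 34 and 30 in H3 shutoff cells and 63 and 66 in wildtype cells. With TMM 955 were higher and 75 lower (13.4% and 10.7% of all windows), and with DESeq2 624 and 8 (7.96% and 3.64%). The median log2 difference of fuzzy nucleosomes was 0.03 without scaling, 0.46 with TMM and 0.48 with DESeq2. That of all windows was −0.45, −0.02 and −0.004. Fewer were called, among fuzzy nucleosomes and among all windows, with any 1 of the 3 h libraries left out. The median log2 difference then lay between 0.016 and 0.0615 for fuzzy nucleosomes and between −0.52 and −0.41 for all windows. In spread, 440 (15.8%) were higher and 277 (9.95%) lower in H3 shutoff cells (limma adjusted p under 0.05), against 52.3% and 3.5% of all windows. The wildtype 3 h medians were 38.6 and 38.9 bp for fuzzy nucleosomes and 27.4 and 27.5 bp for all called nucleosomes, so room to exceed them was again unequal. Here too, fewer were called in both sets with any 1 of the 3 h libraries left out. The median difference of spread then lay between 0.11 and 0.99 bp for fuzzy nucleosomes and between 7.67 and 8.74 bp for all windows. The 2 contrasts share the H3 shutoff 3 h libraries.

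The largest excess of occupancy was at chr5:236105, with 162 and 248 read centers in H3 shutoff cells and 37 and 28 in wildtype cells at 3 h. The log2 difference was 2.65 ± 0.34 (edgeR adjusted p = 0.000254). Next was chr12:806530, 705 bp into RPP0, which encodes the stalk protein of the ribosome: it had 92 and 102 in H3 shutoff cells and 15 and 19 in wildtype cells at 3 h (2.50 ± 0.26, edgeR adjusted p = 0.000188). At 0 h it had 41 and 39 in H3 shutoff cells and 53 and 51 in wildtype cells, so at 3 h it was higher than at 0 h in one strain and lower in the other. At chr8:365438 the counts were 236 and 620 in H3 shutoff cells and 88 and 91 in wildtype cells. The lowest were chr15:15763 and chr9:40835, given above, and chr4:180401, with 17 and 9 in H3 shutoff cells and 48 and 57 in wildtype cells. In spread, the largest excess was at chr7:56597, with 49.9 and 50.7 bp in H3 shutoff cells and 18.5 and 22.2 bp in wildtype cells at 3 h (29.9 ± 2.45 bp, limma adjusted p = 8.4e-05). Its spread at 0 h was 43.2 and 43.2 bp in H3 shutoff cells and 36.5 and 34.3 bp in wildtype cells, so of the 4 groups it was well placed only in wildtype cells at 3 h. At chr10:338955 and chr16:519686, too, the wildtype spread at 3 h was between 18.2 and 23.99 bp, below the 32.7 to 37.4 bp of the wildtype 0 h libraries. The largest deficits of spread were at chr8:243883, with 30.7 and 23.2 bp in H3 shutoff cells and 49.7 and 48.5 bp in wildtype cells, and at chr10:572847 and chr2:126831.

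Among the 8 genes already named for their fuzzy nucleosomes, FAS1, DYN1 and CSF1 each had 5 or more occupancy calls between the strains at 3 h, all in 1 direction. They were picked out by these counts. In the same contrast 6.39% of all windows were called higher and 30.4% lower, and 18.4% and 11.9% of all fuzzy nucleosomes. In FAS1, 7 of the 8 were called higher in H3 shutoff than in wildtype cells at 3 h and none lower by edgeR, with a median occupancy of 57.5 and 70.5 at 3 h and 56 and 53 at 0 h in H3 shutoff cells and 35 and 37.5 at 3 h and 59 and 46.5 at 0 h in wildtype cells. The H3 shutoff and wildtype libraries did not overlap at 3 h, and the wildtype 3 h libraries were the lowest of the 8. In DYN1, 7 of the 13 were called lower and none higher, with 41 and 37 at 3 h and 62 and 69 at 0 h in H3 shutoff cells and 69 and 60 at 3 h and 58 and 58 at 0 h in wildtype cells. In CSF1, 5 of the 11 were lower and none higher. REA1 had 1 of 19 called in each direction, HFA1 1 of 8 in each direction, TOR2 0 of 14 higher and 2 lower, NFT1 1 of 9 lower, and FLO10 0 of 7 in either direction. Of the 6 fuzzy nucleosomes in glycolytic genes, 3 were called higher in H3 shutoff cells, 1 each in CDC19 (pyruvate kinase), FBA1 (aldolase) and PFK2 (a phosphofructokinase subunit), and none lower. That in CDC19 had 56 and 58 read centers at 3 h and 39 and 41 at 0 h in H3 shutoff cells and 24 and 10 at 3 h and 33 and 45 at 0 h in wildtype cells. The one in GAL2, the galactose permease gene, went the other way, with 71 and 63 at 3 h and 53 and 64 at 0 h in H3 shutoff cells and 100 and 103 at 3 h and 70 and 85 at 0 h in wildtype cells, and was called lower. The remaining ones in galactose and chaperone genes (GAL80, HSC82 and HSP104) were not called in occupancy in either contrast. Nucleosomes of 1 gene share a transcript, so these counts are not independent of one another.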

How the data were processed

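Nucleosome calls and aligned fragments of 8 MNase-seq libraries were used. The authors aligned reads to sacCer1 with Bowtie 0.12.6 (version from the submitters' processing notes), drew 5000001 fragments of 100 to 200 bp per library, and called nucleosomes in each library from the read centers. The deposited calls give read center counts, the spread of centers and other positions in bp, and a fraction of centers on the central base, which was not used. Fragment midpoints were counted here in fixed windows around the wildtype B 0 h centers. Counts were tested with edgeR 4.0.16 (quasi-likelihood, equal library sizes), spread and mean position with limma 3.58.1, and DESeq2 1.42.0 was an alternative. The fits between strains at 3 h used 4 group means over all 8 libraries without a block. There the 0 h and 3 h libraries of a culture entered the variance as if independent. Changes over time were fitted with culture as a block. The block follows the methods, by which each culture was split between times. Deviations of the 0 h and 3 h libraries of a culture from their group means correlated at 0.36 in H3 shutoff and −0.08 in wildtype cells (0.10 and 0.14 in windows of at least 5 read centers everywhere). Regions named are those with the 5 (or, between strains, 3) largest changes among adjusted p under 0.05 that moved alike in both cultures. Gene symbols came from RefSeq. The set, lists and rules were chosen with earlier results of these data known. Transcripts of chromosome 10 were left out, as their listed starts were offset from the nucleosome pattern. Those of chromosome 12 (545) were kept, though the lowest density around their starts lay at −117 bp, with 0.54 times the mean. On chromosomes 1, 11, 13 and 14 it lay between −87 and −56 bp, with 0.32 to 0.41 times the mean. Places close to a start on chromosome 12, such as that near RPL31B, are therefore less certain. Depth was equal, so counting error is alike in all libraries; p-values measure only the spread between 2 cultures a strain.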

Additional observations from a re-analysis of the deposited data

Results flagged for a closer look

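The fuzzy-minus-other difference in median log2 occupancy change, 3 h against 0 h, was positive in both H3 shutoff cultures (0.38 and 0.41) and below 0 in both wildtype cultures (−0.00 and −0.01), a gap of 0.403 between the strains. The difference was not tested, since the wildtype changes start from the libraries that chose the set. The wildtype values lie close to 0, and to 3 digits they are −0.00162 and −0.0121.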

How the results depend on the processing

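Higher and lower counts of fuzzy nucleosomes are given in that order. The shares of all windows moved with the settings as well. Between strains at 3 h, fragments of 140 to 160 bp gave 3.93% and 18.7% of all windows in occupancy and 42.9% and 2.88% in spread. Centers within 73 bp gave 8.15% and 14.3% in occupancy. The median change of spread per culture, H3 shutoff minus wildtype, turned sign without H3 shutoff replicate 4 (0.068 bp) and lay between −0.989 and 0.068 bp over the left-out cultures, and that of log2 occupancy between 0.0656 and 0.126. For occupancy over time in H3 shutoff cells, TMM gave 547 and 20, DESeq2 38 and 0, a member spread of at least 38 bp 117 and 76, fragments of 140 to 160 bp 78 and 71, and centers within 73 bp 88 lower; left-out cultures gave 4 to 354 higher and 4 to 259 lower. For occupancy between strains at 3 h, TMM gave 955 and 75, DESeq2 8 lower, 38 bp 248 and 154, 140 to 160 bp 249 and 164, at least 60 read centers 198 lower and 73 bp 202 lower; left-out libraries gave 215 to 568 and 101 to 369. For spread over time, 38 bp gave 35 and 51, 60 read centers 63 and 62, centers within 60 bp 67 and 47, 140 to 160 bp 68 higher and at least 3 read centers a library 63 lower; left-out cultures gave 0 to 114 and 0 to 116. For spread between strains, 38 bp gave 178 and 143, 60 read centers 247 higher and 140 to 160 bp 275 higher; left-out libraries gave 262 to 426 and 149 to 264. For position, 38 bp gave 93 and 83, 60 read centers 114 and 98, and 140 to 160 bp 94 and 77; left-out cultures gave 0 to 190 and 0 to 152. Over time, centers within 73 bp gave 3.83% and 8.02% of all windows in occupancy. In spread, all windows gave 20.0% and 1.21% within 60 bp, 19.1% and 1.36% with 140 to 160 bp, and 24.2% and 1.31% with at least 3 read centers. For position, 140 to 160 bp gave 6.14% and 5.09%. The stricter member rules leave the shares of all windows unchanged. The stricter member rules and the shorter fragment range hold fewer nucleosomes or reads. The cause of the other shifts was not tested. Of 108 values under other settings, 72 stayed within 1.5 times or kept their direction.

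Without the culture block (no pairing of 0 h and 3 h), counts over time were 183 and 143 for occupancy, 128 and 121 for spread and 215 and 184 for position, all within 1.5 times of those with it. The fits between strains had no block. Fitted on the 3 h libraries alone, 1 per culture, they gave 481 and 304 in occupancy (7.0% and 31.6% of all windows). In spread they gave 373 and 229 (49.8% and 3.45%). A fuzzy nucleosome that was not called is not shown to be unchanged.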
